A study of Mus musculus with 24 samples.

Results

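The 10 antigen presentation genes examined here encode the machinery that displays peptides to T cells. They were chosen by symbol, as probe sets annotated to 6 genes of the MHC class I pathway (H2-D1, H2-K1, B2m, Tap1, Psmb8 and Psmb9) and 4 of the class II pathway (H2-Aa, H2-Ab1, H2-Eb1 and Cd74), and all 10 were found among 14755 genes with a probe set. At day 28 the high fat diet went with lower class I and class II transcripts in mouse quadriceps. There 6 of the 8 members that could be tested were lower, by 0.68 to 0.97 on the log2 scale, where 7.20% of all genes tested were called lower. At day 3 none of the 8 passed the test, but 2 did when 1 array that stood apart was left out. The diet effects at the 2 days were not shown to differ. The remaining members, Tap1 and Psmb9, never reached the level set for testing.

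Class I molecules sit on nearly all nucleated cells and present peptides from the cell's own proteins. The peptides are cut by the proteasome, in which interferon-inducible subunits such as Psmb8 and Psmb9 can replace the standard catalytic ones, carried into the endoplasmic reticulum by Tap1 and its partner, and loaded onto a heavy chain paired with B2m. Class II molecules present peptides taken up from outside and are found mainly on professional antigen presenting cells, that is dendritic cells, macrophages and B cells, where Cd74, the invariant chain, escorts them. Muscle fibres at rest are known for low class I levels, so whole muscle also reads the blood vessels, fat cells and immune cells that lie between the fibres.

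Quadriceps, a thigh muscle, was taken from male mice of a strain that the labels write as C56BL/6J. From 9 weeks of age all mice ate a low fat run-in diet for 3 weeks and were then assigned at random to a palm oil diet with 10% (low fat) or 45% (high fat) of its energy as fat. They were killed after 3 days, at 12 weeks of age, or after 28 days, at 16 weeks, which gave 4 groups of 6 mice, each mouse on its own Affymetrix one-colour array (24 arrays). Low fat mice carry numbers from 2010 to 2025 and high fat mice from 1751 to 1772, so the set of animals and the diet cannot be told apart, and age and time on the diet cannot either. A DNase step is named in the extraction protocol of every array except low fat day 3 replicate 1. Values are log2 of the deposited GCRMA intensity, a background-corrected and normalized brightness per probe set, so levels of different genes are not compared with each other.

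The arrays were alike in overall brightness, with medians from 2.71 to 2.79 (log2), and correlated at 0.978 to 0.995 with each other. The mean of 7 skeletal muscle markers ran only from 13.49 to 13.60, so every array read skeletal muscle. These markers do not show which part of the muscle was taken or how much fat came with it. Slow fibre and adipocyte markers differed between the diets, as given below. High fat day 3 replicate 5 stood apart from its group. It had the highest level of 9 of the 10 members there, an adipocyte marker mean of 8.93 against 5.47 to 6.96 on the other 5 arrays, and the B cell gene Cd79b at 5.06, against at most 2.36 on any other array. The T cell genes Cd3d and Cd3g were also at their highest on this array, at 3.44 and 2.60, against at most 1.65 and 1.51 elsewhere. Values without it are given beside the main results that it moves.

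The stretches before the transcription starts of 5 members are shown, from RefSeq (GRCm38.p6), each the 150 bases before the start. Whether they bear on the day 28 changes was not tested. Capitals mark every match, on either strand, to 3 strings known from MHC promoters, CCAAT (the core of the Y box), TGACG (the core of the X2 box) and GCAAC (found in the X1 box). The 5 windows lie at chr17:35262944-35263093 (plus strand) for H2-D1, chr17:34000334-34000483 (minus strand) for H2-K1, chr2:122147537-122147686 (plus strand) for B2m, chr17:34287824-34287973 (minus strand) for H2-Aa and chr17:34305717-34305866 (plus strand) for H2-Eb1.
H2-D1: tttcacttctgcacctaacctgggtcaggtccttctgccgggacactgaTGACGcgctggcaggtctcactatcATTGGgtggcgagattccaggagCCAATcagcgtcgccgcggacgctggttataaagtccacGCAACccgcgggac
H2-K1: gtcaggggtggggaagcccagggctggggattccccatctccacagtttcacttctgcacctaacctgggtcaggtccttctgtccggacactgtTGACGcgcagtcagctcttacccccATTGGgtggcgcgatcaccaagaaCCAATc
B2m: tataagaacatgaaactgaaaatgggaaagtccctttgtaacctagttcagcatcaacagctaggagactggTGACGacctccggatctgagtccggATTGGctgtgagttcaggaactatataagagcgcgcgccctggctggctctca
H2-Aa: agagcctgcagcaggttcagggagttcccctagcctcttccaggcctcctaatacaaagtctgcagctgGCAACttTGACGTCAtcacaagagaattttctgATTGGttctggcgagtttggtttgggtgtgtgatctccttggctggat
H2-Eb1: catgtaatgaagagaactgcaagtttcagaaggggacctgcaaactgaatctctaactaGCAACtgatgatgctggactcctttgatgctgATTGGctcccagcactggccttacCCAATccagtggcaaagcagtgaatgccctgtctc

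H2-D1, H2-K1 and B2m each held CCAAT and TGACG, while the class II windows of H2-Aa and H2-Eb1 each held GCAAC followed by CCAAT in its reverse complement. In H2-Aa the capitals TGACGTCA are TGACG and its reverse complement overlapping by 2 bases. H2-D1 also held GCAAC, 10 to 14 bases before the start. Of the 8 members listed in the promoter table, 6 held CCAAT, 6 TGACG and 4 GCAAC. Of 32851 windows of the same length, 24.5%, 13.3% and 19.6% held them. The windows of Tap1, Psmb8 and Psmb9 are counted but not printed, and that of Psmb8 held none of these strings. The windows of Tap1 and Psmb9 overlap, and the TGACG counted for each is the same stretch read on opposite strands. H2-K1 has 2 listed starts, and the window before the downstream one is shown. H2-Ab1 and Cd74 are not in the table. Tap1 and Psmb9 lie head to head on opposite strands with starts 226 bases apart. A match describes letters and not a bound site.

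The comparison at day 28 asks how muscle of mice kept on the high fat diet for 28 days differed from that of low fat controls of the same age. Of the 4 class I pathway members tested, 3 were lower and 1 did not pass, and of the 4 class II members 3 were lower and 1 did not pass. Over all 5794 genes tested 12.5% were called in this comparison and 7.20% were called lower. All 8 members had an unadjusted p under 0.05, against 24.9% of all genes. The median change of the 8 members was -0.76 (log2), beside 0.01 over all genes tested. In bulk muscle, fewer cells of a type and less RNA per cell cannot be told apart.

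**Figure D1:**
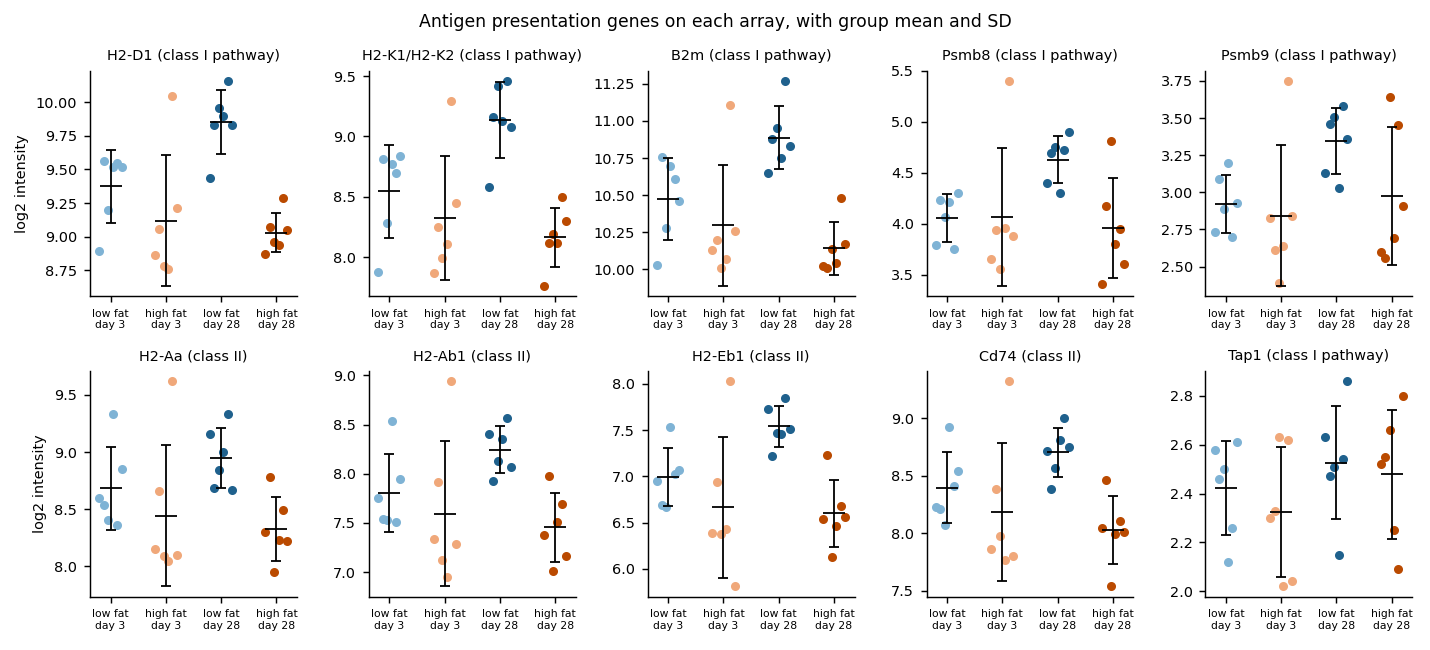
Log2 intensity of the 10 antigen presentation genes on each of the 24 arrays (points), with the mean and SD of the 6 arrays of each diet and day (black). High fat day 3 replicate 5 lies far above its group in most panels (H2-D1 10.05), and at day 28 the low fat arrays lie above all high fat arrays for H2-D1, H2-K1/H2-K2 and B2m.

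H2-D1 encodes a classical class I heavy chain, the part of the molecule that holds the peptide. At day 28 it ran from 9.44 to 10.16 on low fat (median 9.87, log2 intensity) and from 8.87 to 9.29 on high fat (median 9.01). All 6 high fat arrays lay below all 6 low fat arrays. The change was -0.82 ± 0.17 (SE, n = 6 per group, adjusted p = 0.00221), which is 1.77-fold lower. At day 3 it ran from 8.89 to 9.56 on low fat (median 9.52) and from 8.76 to 10.05 on high fat (median 8.96). There the groups overlapped, with replicate 1 lowest on low fat and replicate 5 highest on high fat.

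H2-K1, the other classical heavy chain of this strain's class I molecules, is read by a probe set numbered for H2-K1 but annotated to both H2-K1 and H2-K2. Class I genes are near-identical copies, so the signal of this probe set and of that for H2-D1 may be shared with relatives, and the values are uncertain for any single copy. H2-K1/H2-K2 ran from 8.58 to 9.46 on low fat at day 28 (median 9.15) and from 7.76 to 8.50 on high fat (median 8.16). Again no high fat array reached the lowest low fat array. The change was -0.97 ± 0.21 (SE, adjusted p = 0.00251), 1.96-fold lower. At day 3 the groups overlapped, from 7.88 to 8.84 on low fat (median 8.73) and from 7.87 to 9.29 on high fat (median 8.18).

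B2m, the light chain shared by all class I molecules, ran from 10.65 to 11.27 on low fat at day 28 (median 10.85) and from 10.01 to 10.48 on high fat (median 10.09). The groups did not overlap, and the highest high fat array, replicate 5, stood clear of the next at 10.17. The change was -0.74 ± 0.16 (SE, adjusted p = 0.00237), 1.67-fold lower. At day 3 it ran from 10.03 to 10.76 on low fat (median 10.53) and from 10.01 to 11.11 on high fat (median 10.16), which overlap. H2-D1, H2-K1/H2-K2 and B2m were the only members whose diet groups did not overlap at day 28. Over all genes tested 4.57% were lower without overlap.

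Psmb8 is the immunoproteasome subunit that replaces Psmb5. It was dim, and at day 28 ran from 4.30 to 4.90 on low fat (median 4.71) and from 3.41 to 4.81 on high fat (median 3.87). High fat replicate 3, at 4.81, lay among the low fat arrays, and the other 5 high fat arrays lay below all of them. The change of -0.67 ± 0.24 (SE) did not pass (adjusted p = 0.0776). It passed without high fat day 28 replicate 3 or without high fat day 3 replicate 5, at adjusted p of 0.0213 and 0.0109. At day 3 it ran from 3.75 to 4.30 on low fat (median 4.13) and from 3.55 to 5.40 on high fat (median 3.91).

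Psmb9, the immunoproteasome subunit that replaces Psmb6, stayed at or below 3.75 on all 24 arrays, and Tap1, a subunit of the peptide transporter, at or below 2.86. Neither exceeded a log2 level of 4 anywhere, so neither was tested. Psmb9 ran from 3.03 to 3.58 on low fat at day 28 (median 3.41) and from 2.56 to 3.64 on high fat (median 2.80), with high fat replicate 3 above and replicate 5 among the low fat arrays. At day 3 it ran from 2.70 to 3.20 on low fat (median 2.91) and from 2.39 to 3.75 on high fat (median 2.74). Tap1 ran from 2.15 to 2.86 on low fat and from 2.09 to 2.80 on high fat at day 28, and from 2.12 to 2.61 and from 2.02 to 2.63 at day 3. Its group medians spanned only 2.31 to 2.53, within the spread of every group.

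H2-Aa and H2-Ab1 encode the alpha and beta chains of the class II molecule I-A. H2-Aa ran from 8.67 to 9.33 on low fat at day 28 (median 8.92) and from 7.95 to 8.78 on high fat (median 8.27), so that only high fat replicate 2 reached into the low fat range. Its change of -0.62 ± 0.22 (SE) did not pass (adjusted p = 0.0736), but passed without high fat day 3 replicate 5 (adjusted p = 0.0125). H2-Ab1 ran from 7.93 to 8.57 on low fat (median 8.24) and from 7.01 to 7.98 on high fat (median 7.45), with the same replicate as the only overlap. It was lower by -0.79 ± 0.26 (SE, adjusted p = 0.0447), 1.73-fold. That call was lost when any of 12 arrays was left out in turn, at adjusted p from 0.0505 to 0.103. At day 3 both chains overlapped between the diets. H2-Aa ran from 8.36 to 9.33 on low fat (median 8.57) and from 8.05 to 9.62 on high fat (median 8.13). H2-Ab1 ran from 7.51 to 8.54 on low fat (median 7.65) and from 6.95 to 8.94 on high fat (median 7.31).

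H2-Eb1 encodes the beta chain of the second class II molecule, I-E, whose alpha chain C57BL/6 mice are known not to express. It ran from 7.22 to 7.85 on low fat at day 28 (median 7.49) and from 6.13 to 7.23 on high fat (median 6.55). The groups touched at a single array, high fat replicate 2. Its change of -0.94 ± 0.25 (SE, adjusted p = 0.0148), 1.92-fold lower, had the smallest adjusted p of the class II members. At day 3 it ran from 6.67 to 7.53 on low fat (median 6.98) and from 5.81 to 8.03 on high fat (median 6.41). High fat replicate 5 was highest and replicate 6 lowest of all 12 day 3 arrays.

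Cd74, the invariant chain that fills the class II groove until peptide is loaded, ran from 8.38 to 9.00 on low fat at day 28 (median 8.73) and from 7.54 to 8.46 on high fat (median 8.03). High fat replicate 2 was again the only array to reach the low fat range. The change was -0.68 ± 0.21 (SE, adjusted p = 0.0347), 1.60-fold lower. It was lost when any of 8 day 28 arrays was left out in turn, at adjusted p from 0.0559 to 0.0881. At day 3 it ran from 8.07 to 8.92 on low fat (median 8.32) and from 7.77 to 9.32 on high fat (median 7.92), which overlap.

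**Figure D2:**
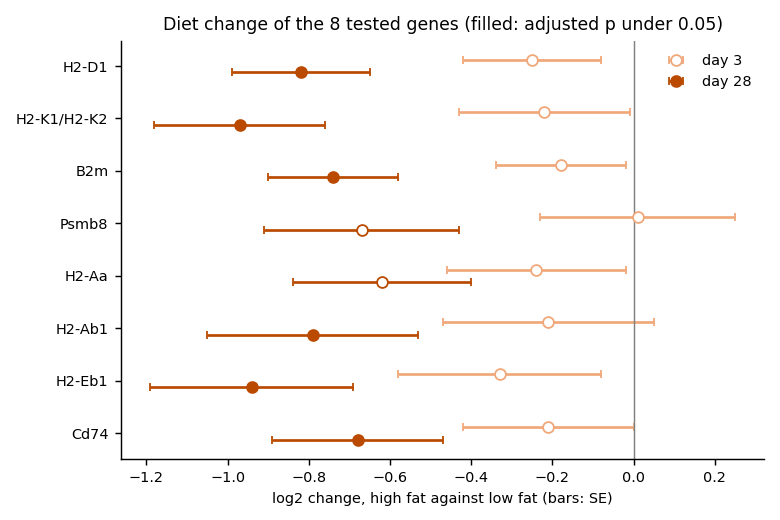
Log2 change on high fat against low fat with its SE for the 8 tested members at day 3 (light) and day 28 (dark), with filled points for an adjusted p under 0.05. The 6 filled points are all at day 28, between -0.97 and -0.68, and at day 3 the changes lie between -0.33 and 0.01.

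After 3 days, 0 of the 8 members were called by limma, and 0 had an unadjusted p under 0.05. Of all genes tested 14.9% were called, 6.87% were called lower and 29.5% had an unadjusted p under 0.05. Changes ran from -0.33 ± 0.25 (SE) for H2-Eb1 to 0.01 ± 0.24 for Psmb8, with a median of -0.21 beside -0.01 over all genes. Adjusted p ran from 0.343 to 0.988. This rests on high fat day 3 replicate 5. Without it H2-D1 was lower by -0.44 ± 0.13 (SE, adjusted p = 0.0268) and H2-Eb1 by -0.60 ± 0.19 (SE, adjusted p = 0.0363), so 2 members were called. B2m and Cd74 then had changes of -0.34 and -0.44 that did not pass (adjusted p = 0.0665 and 0.0634). At day 28, leaving out that array gave 8 of 8 members lower, because the groups share an estimate of the spread.

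Whether the diet effect differed between the days was tested directly, as an interaction. The difference between the day 28 and day 3 effects was negative for all 8 members, from -0.76 to -0.38 with a median of -0.57, but 0 were called by limma and 3, all class I, had an unadjusted p under 0.05. Over all genes 1.38% were called and 18.8% had an unadjusted p under 0.05. Without high fat day 3 replicate 5 the differences ran from -0.56 to -0.15 with a median of -0.36, and 0 were called by limma. The members' diet effects at the 2 days were thus not shown to differ.

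The time comparisons ask how levels differed between day 28 and day 3 within a diet. On low fat all 8 members had a higher mean at day 28, by 0.27 to 0.59 with a median of 0.46. Of these 0 were called by limma (0.345% of all genes were) and 5 had an unadjusted p under 0.05 (16.7% of all genes). H2-K1/H2-K2 had 0.59 ± 0.21 (SE, adjusted p = 0.169), H2-D1 0.48 ± 0.17 (adjusted p = 0.173) and H2-Eb1 0.55 ± 0.25 (adjusted p = 0.277). On high fat the changes were -0.16 to -0.06 with a median of -0.13. Their sign rests on high fat day 3 replicate 5, since without it all 8 were positive, from 0.01 to 0.21 with a median of 0.11, and none was called. None of the 8 was called there, against 0.552% of all genes, and 0 had an unadjusted p under 0.05, against 14.4% (limma). Each day 28 group also serves in the diet comparison, so these values share arrays.

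For 7 of the 8 tested members the order of group means was low fat day 28, low fat day 3, high fat day 3 and high fat day 28. For H2-D1 these means were 9.86 ± 0.24, 9.37 ± 0.27, 9.12 ± 0.49 and 9.03 ± 0.15 (SD, n = 6 each). Those of Cd74 were 8.70 ± 0.21, 8.40 ± 0.31, 8.18 ± 0.60 and 8.03 ± 0.29. Psmb8 was the exception, with high fat day 3 at 4.06 ± 0.67 and low fat day 3 at 4.05 ± 0.24. Without high fat day 3 replicate 5, high fat day 3 was the lowest group for all 8 members, with H2-D1 at 8.94 ± 0.20 (SD, n = 5) and Cd74 at 7.96 ± 0.25, each below its high fat day 28 mean. No pair of neighbours in the order over all arrays passed the test for any member. Of the pairs compared, the one with called members was low fat against high fat at day 28.

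To set class II against class I within each array, the log2 level of each class II gene minus that of B2m was compared between diets, in 8 two-sided exact permutation tests over 924 arrangements. At day 28 the difference between diets was 0.13 for H2-Aa, -0.04 for H2-Ab1, -0.20 for H2-Eb1 and 0.07 for Cd74. At day 3 the 4 differences lay between -0.15 and -0.03, and between -0.26 and -0.10 without high fat day 3 replicate 5. By the exact permutation tests the smallest p was 0.359 and every adjusted p was 0.879, where the design could have reached 0.00216. The SD of this within-array difference was 0.24 to 0.47 in the groups. At day 28 the class I median change was -0.78 and the class II median -0.73.

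The class II genes and 3 of the class I members did separate in how mice of one group varied among themselves. After subtraction of the group mean, H2-D1, H2-K1/H2-K2 and B2m correlated over the 24 arrays at 0.910 to 0.957 (3 pairs), and the class II genes at 0.902 to 0.979 (6 pairs). Between these sets the 12 correlations were lower, from 0.464 to 0.700 with a median of 0.591. High fat day 3 replicate 5 was high in both classes. Over the other 23 arrays the correlations between the sets were 0.022 to 0.361 with a median of 0.224. Those within the 3 class I genes were then 0.849 to 0.938 and those within class II 0.801 to 0.957. Psmb8 and Psmb9, both dim, correlated with each other at 0.813 over all arrays, and at 0.676 without high fat day 3 replicate 5. With the 3 class I genes they had only 0.657 to 0.679 and 0.677 to 0.778 over all arrays, and with the class II genes 0.466 to 0.518 and 0.301 to 0.398. Tap1 correlated with the other 9 members at only -0.049 to 0.284, and at -0.361 to 0.092 without high fat day 3 replicate 5. Single mice show the separation of the 2 sets unevenly. Low fat day 28 replicate 1 had the lowest H2-D1 of its group (9.44) with the second highest H2-Eb1 (7.73). High fat day 28 replicate 2 had the highest Cd74 of its group (8.46). Its B2m was the lowest (10.01), but only just (next 10.02), and its H2-D1 (9.07) was second highest after replicate 5 (9.29). The class I genes were thus not low together in that mouse. These correlations are a description, since the points share arrays and probes of class I genes may share transcripts.

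**Figure D3:**
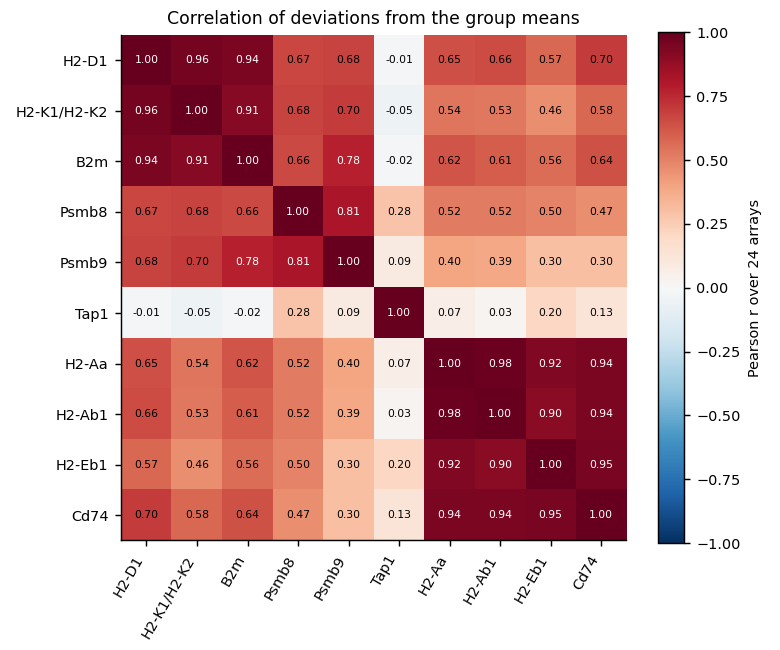
Pearson correlation, over 24 arrays, of the deviations from the group means for all pairs of the 10 members. The block of H2-D1, H2-K1/H2-K2 and B2m (0.910 to 0.957) and the block of the 4 class II genes (0.902 to 0.979) are darker than the field between them (0.464 to 0.700).

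The genes outside the set with the most similar deviations differed between B2m and Cd74. To B2m these were Npc2, a lysosomal cholesterol carrier (r = 0.938), Retn, the adipocyte hormone resistin (0.929), Orm1, an acute phase plasma protein (0.915), Bscl2, the lipid droplet protein seipin (0.904), and Gstz1, an enzyme of tyrosine breakdown (0.902). To Cd74 they were Cd52, a leukocyte surface peptide (0.849), Lyz2, macrophage lysozyme (0.826), Ptprc, the leukocyte phosphatase CD45 (0.821), Arhgdib (0.820), and Cd47, a surface signal against phagocytosis (0.806). Without high fat day 3 replicate 5 these were 0.807 to 0.879 for B2m and 0.555 to 0.786 for Cd74. Over all 24 arrays the genes nearest to B2m also correlated with Cd74, at 0.440 to 0.689. Those nearest to Cd74 correlated with B2m at 0.511 to 0.728. How far these values rest on high fat day 3 replicate 5 was not tested. At day 28, where 7.20% of all genes tested were called lower, all 5 nearest to B2m were lower, by 0.95 for Npc2 up to 4.26 for Retn. Of the 5 nearest to Cd74, Lyz2 (-0.84, adjusted p = 0.0188) and Cd47 (-0.37, adjusted p = 0.0194) were lower and 3 did not pass.

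Of 7 other class I pathway genes tested, 1 was lower at day 28 (7.20% of all genes were), Tapbp, the tapasin that holds the transporter to the heavy chain (-0.38 ± 0.12 SE, adjusted p = 0.0416), and the median was -0.16. None was called at day 3, and 0 had an unadjusted p under 0.05 (limma). The standard proteasome subunits Psmb5, Psmb6 and Psmb7 had changes of -0.02, -0.03 and -0.00 at day 28, each ± 0.06 (SE), and none of them passed at either day. Psmb10, which replaces Psmb7 in the immunoproteasome, had -0.22 ± 0.18 (SE) at day 28 and did not pass.

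Beside the counts that follow, 6.87% of all genes tested were called lower at day 3 and 7.20% at day 28. Of 3 other class II pathway genes tested, 2 were lower at day 28. These were Ctss, the protease cathepsin S that trims the invariant chain (-1.09 ± 0.27 SE, adjusted p = 0.00942), and Ifi30, a lysosomal thiol reductase (-0.92 ± 0.27 SE, adjusted p = 0.0272). None of the 3 was called at day 3, and 0 had an unadjusted p under 0.05 (limma). The class II transactivator Ciita and its class I counterpart Nlrc5 stayed at or below 1.84 and 2.56 on all arrays and were not tested. Among 9 tested regulators of MHC transcription 1 was lower at each day, a count near the share over all genes. It was Ifngr1, a chain of the interferon gamma receptor, with -0.57 ± 0.16 (SE, adjusted p = 0.0160) at day 3. At day 28 it had -0.79 ± 0.16 (SE, adjusted p = 0.00134). The other 8 did not pass at either day. Of 6 interferon response genes tested, 2 were lower at day 28, Ifi27 (-1.15 ± 0.18 SE, adjusted p = 0.000194) and Ifi35 (-0.48 ± 0.12 SE, adjusted p = 0.00734). At day 3 none was called, with 1 at an unadjusted p under 0.05 (limma). That gene, Iigp1, was higher on high fat, by 0.74 ± 0.31 (SE) at day 3 and 0.66 ± 0.31 at day 28, and did not pass. Of the list's day 28 changes 3 were negative and 3 positive, with a median of -0.10.

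Marker lists of other cell types were lower or higher in the same comparisons. All 11 tested macrophage markers (14 measured) were lower at day 28, with a median of -1.16. Those of smallest adjusted p were the complement genes C1qb (-1.55 ± 0.26 SE, adjusted p = 0.000368) and C1qa (-1.51 ± 0.27 SE, adjusted p = 0.000664) and the scavenger receptor Cd163 (-1.13 ± 0.19 SE, adjusted p = 0.000379). The summed intensity of all 14 measured macrophage markers ran from 1264 to 2842 on low fat and from 757 to 1304 on high fat. At day 3 only Cd163 was called (-0.99 ± 0.19 SE, adjusted p = 0.00137). All 7 tested adipocyte markers (8 measured) were lower at day 28, with a median of -4.26. The 8 measured had summed intensities of 7301 to 14158 on low fat and 2773 to 4230 on high fat. The tested adipocyte markers of smallest adjusted p were Pck1 (-4.87 ± 0.61 SE), the hormone resistin Retn (-4.26 ± 0.63) and the lipid droplet protein Cidec (-4.50 ± 0.67). At day 3 the adipocyte call was 3 of 7 lower, which became 6 without high fat replicate 5 and 7 without low fat replicate 1. Of all 5794 genes tested, 463 were called higher at day 3 and 310 at day 28. All 8 slow fibre markers were higher on high fat at both days, with medians of 4.98 and 4.41 and with Tnni1, slow troponin I, at 5.25 and 4.87. Of 8 endothelial markers 5 were higher at day 3 (3 without low fat replicate 1), of which Esam, an adhesion molecule of vessels (0.42 ± 0.08 SE), had the smallest adjusted p, and 0 were called at day 28 (1 without high fat day 3 replicate 5), with 6 at an unadjusted p under 0.05 (limma).

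Markers of dendritic cells, B cells and T cells were near the bottom of the scale. None of the 6 dendritic cell, 2 B cell and 5 T cell markers measured passed the filter, and the dendritic cell markers did not exceed 2.68 on any array. Cd79b on high fat day 3 replicate 5 was the only value of these lists over a log2 level of 4. Summed intensities of the dendritic cell markers at day 28 were 19 to 22 on low fat and 18 to 22 on high fat.

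Within groups, B2m followed the adipocyte markers and Cd74 the macrophage markers. The deviation of B2m from its group mean correlated with that of the adipocyte marker mean at r = 0.878 and a Spearman coefficient of 0.834 over 24 arrays (adjusted p = 6.0e-05 and 8.0e-05, 100000 permutations within groups, 4 relations tested). In the 4 groups r was 0.816, 0.952, 0.818 and 0.957 (low fat day 3, high fat day 3, low fat day 28, high fat day 28), and 0.770 without the 2 arrays farthest out, high fat day 3 replicate 5 and low fat day 3 replicate 1. With the macrophage mean B2m had r = 0.469 (adjusted p = 0.037) and a Spearman coefficient of 0.395 (adjusted p = 0.11), with r from -0.229 to 0.805 in the groups. The r was 0.380 without high fat day 3 replicate 5 and 0.523 without the 2 arrays farthest out in that mean.

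Cd74 correlated with the macrophage mean at r = 0.697 and a Spearman coefficient of 0.686 (adjusted p = 6.0e-05 and 0.0010 by permutation), at 0.776 to 0.801 in each of the 4 groups at 0.619 without the 2 farthest arrays, and at 0.732 without high fat day 3 replicate 5. With the adipocyte mean it had r = 0.437 (adjusted p = 0.11) and a Spearman coefficient of 0.229 (adjusted p = 0.33). That r was 0.002 without high fat day 3 replicate 5, so it rests on that array. Without low fat day 3 replicate 1 as well it was 0.053. The difference between the genes' correlations was not tested.

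**Figure D4:**
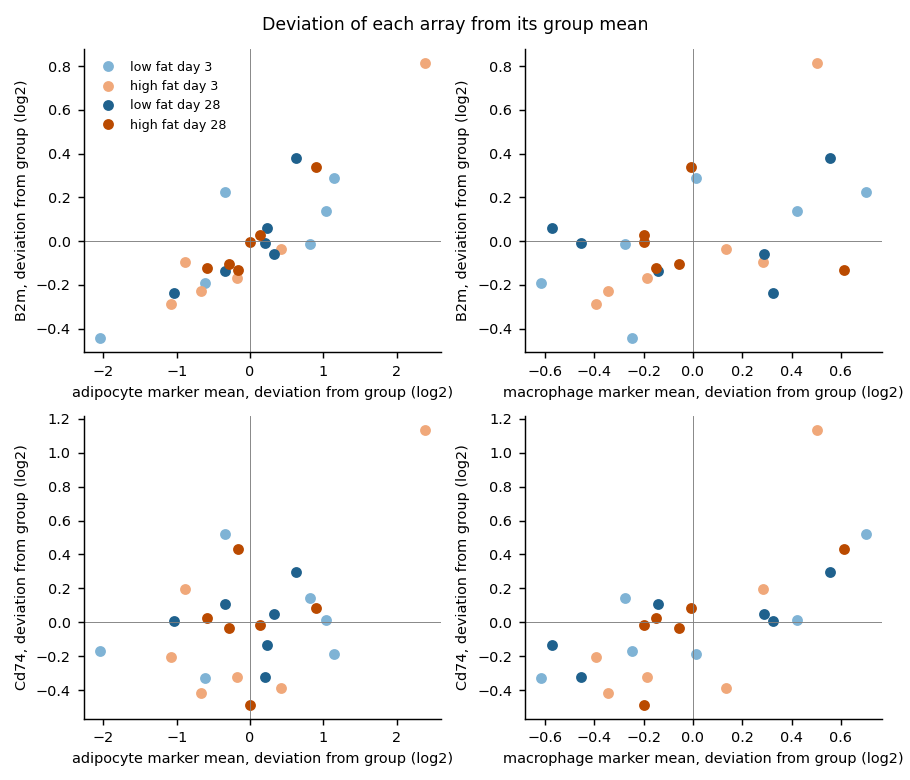
Deviation of B2m (top) and Cd74 (bottom) from the group mean against that of the adipocyte (left) and macrophage (right) marker means, on the log2 scale, 1 point per array coloured by group. B2m rises along the adipocyte mean (r = 0.878) and Cd74 along the macrophage mean (r = 0.697), while the topmost array of each panel is high fat day 3 replicate 5.

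Adding each marker mean to the fit as a covariate removed all 6 day 28 calls. With the adipocyte mean the class I members had 0.20 to 0.35 (median 0.27) and the class II members -0.36 to -0.04 (median -0.10). With the macrophage mean the class I members had -0.59 to -0.30 (median -0.38) and the class II members -0.08 to 0.16 (median 0.12). With the slow fibre mean they had -0.86 to -0.60 and -0.45 to -0.20. Adjusted p was 0.402 or higher for all 8 members in these 3 fits. The calls over all genes tested also dropped, from 727 to 22, 20 and 28. At day 28 the adipocyte mean of the low fat arrays (8.36 to 10.02) did not overlap that of the high fat arrays (5.11 to 6.60), nor did the macrophage mean (6.20 to 7.33 against 5.36 to 6.17) or the slow fibre mean (3.75 to 7.53 against 8.54 to 9.58). These covariates and the diet therefore overlap in what they describe, and the part of other cell types in the members' change was not tested further.

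**Figure D5:**
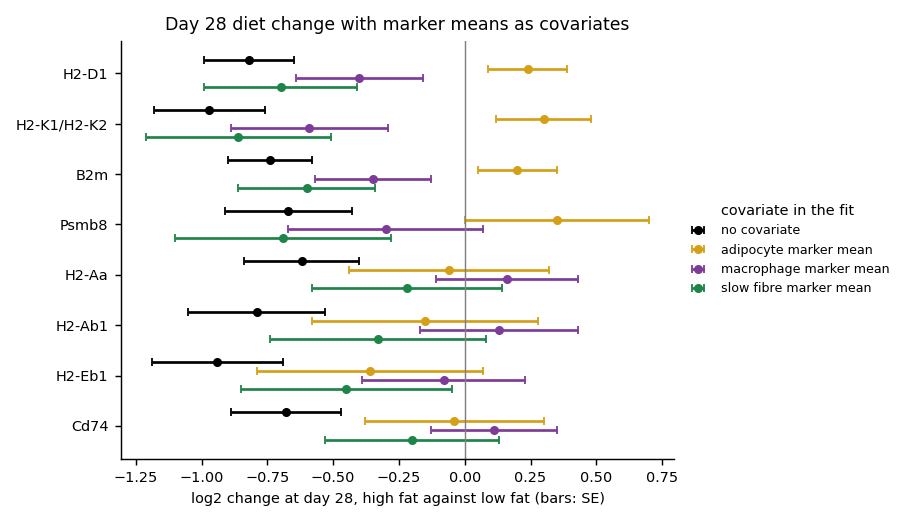
Log2 change at day 28, high fat against low fat, with its SE for the 8 tested members in the fit without a covariate (black) and with the adipocyte, macrophage or slow fibre marker mean added. The class I members lie to the right of 0 with the adipocyte mean (0.20 to 0.35), and the class II members lie close to 0 with the macrophage mean (-0.08 to 0.16).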

How the data were processed

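Total RNA of 24 quadriceps samples was hybridised to Affymetrix arrays. The authors deposited 1 linear intensity per probe set and array, computed with GCRMA per the submitters' processing notes. Its version, the probe definition and the genome build are not given in the sources used here. Of 16361 probe sets, 14771 had 1 symbol in the platform annotation, 589 several and 937 were not listed. The probe set of highest mean was kept per symbol, and that of H2-K1/H2-K2 was added. A gene was tested when log2 intensity, with no offset, exceeded 4 on at least 6 arrays (5794 genes). The fit of group means over all arrays used limma 3.58.1 (R 4.3.3), with 20 residual degrees of freedom, two-sided tests and Benjamini-Hochberg adjustment over all genes tested. Calls were made at an adjusted p under 0.05. The fit was tested on simulated data. The members and the gene lists were chosen with earlier results of these data known. All members were named, from each list at most 3 called genes per comparison and direction, and the 5 genes most like B2m and Cd74. Psmb10 was named after its values were seen. Labels pair no mice. The number of arrays limits the precision. Alternatives covered normalization, filter, offset, probe set choice, array weights, variance prior, arrays in the fit, a replicate block and marker covariates.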

Additional observations from a re-analysis of the deposited data

Results flagged for a closer look

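Among 40 sets of 6 arrays (10 members in 4 groups), 5 held an array whose gap to the nearest other exceeded Dixon's 95% critical value, where chance gives about 1 in 20. High fat day 3 replicate 5 accounted for 4 of them. It had H2-D1 at 10.05 (next 9.21), B2m at 11.11 (next 10.26), Psmb8 at 5.40 (next 3.96) and Psmb9 at 3.75 (next 2.84), all log2 intensities, and it is also the array with the Cd79b and adipocyte marker values given above. High fat day 28 replicate 5 had B2m at 10.48 (next 10.17), and its adipocyte marker mean of 6.60 was also the highest of its group.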

How the results depend on the processing

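The day 28 count of 6 members lower became 0 with the adipocyte, macrophage or slow fibre mean as a covariate. Leaving out each array in turn, an alternative added after the data were seen, gave 4 to 8, and the other alternatives also gave 4 to 8. The day 3 count was 0 to 2 over the arrays left out, reaching 2 without high fat day 3 replicate 5. On low fat over time, array weights called 1 member, H2-D1 (0.53, adjusted p = 0.0473). Replicate numbers were not shown to pair the mice: over 12 same-numbered pairs the correlation of deviations was -0.082 to 0.537, with 6 over 0.1 and 3 best matches. With the number as a replicate block the interaction called 1 member, H2-K1/H2-K2, and the day 28 count stayed at 6.

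H2-Ab1 and Cd74 were the least steady day 28 calls, and both were lost with no filter. Over 37 alternatives, which include each array left out and the marker covariates, H2-Ab1 kept its call in 19 and Cd74 in 25. H2-Aa and Psmb8 were called with array weights and with only the arrays compared. With the adipocyte mean, the sign at day 28 turned for H2-D1 (0.24), H2-K1/H2-K2 (0.30), B2m (0.20) and Psmb8 (0.35), and with the macrophage mean for H2-Aa (0.16), H2-Ab1 (0.13) and Cd74 (0.11). None of these was called, and the cause was not tested. At day 3, where nothing was called, signs turned with the adipocyte mean for H2-D1 (0.23), H2-K1/H2-K2 (0.36), B2m (0.25), H2-Aa (0.01), H2-Ab1 (0.08) and Cd74 (0.07). They turned with the macrophage mean for H2-Aa (0.03), H2-Ab1 (0.11) and Cd74 (0.06), and with the slow fibre mean for H2-Aa (0.20), H2-Ab1 (0.30), H2-Eb1 (0.22) and Cd74 (0.31). Psmb8 at day 3 had -0.00 with quantile normalization, -0.19 with array weights, -0.01 with the slow fibre mean and -0.26 to 0.11 with each array left out.

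The class II minus B2m differences at day 3 ran, with an array left out, from -0.13 to 0.01 for H2-Aa, -0.14 to 0.04 for H2-Ab1 and -0.10 to 0.02 for Cd74. With H2-K1/H2-K2 in place of B2m they were 0.01 for H2-Ab1 and 0.00 for Cd74 at day 3, and 0.19 for H2-Ab1 and 0.04 for H2-Eb1 at day 28. None passed. Tap1, Psmb9 and the dim Psmb8 are limited by signal over background.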
